A study of Mus musculus with 16 samples.

Results

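Senexin B is a small molecule that inhibits CDK8 and its close relative CDK19, and the 8 libraries described here ask what it did to the transcriptome of control leukaemic lines whose Cdk8 gene was intact. They were chosen as the 4 wild-type libraries labelled senexin B and the 4 wild-type libraries labelled control, paired by replicate number, out of 16 in the series. The study grew pro-B cell lines from mouse bone marrow of the C57BL/6N strain, transformed with the oncogene BCR-ABL1p185. Each genotype was represented by 4 individually derived lines, and each line was kept for 48 h in 1 µM Senexin B or in 0.01% DMSO, the solvent of the compound. Control lines are labelled wildtype, and the study's methods give them as Cdk8 fl/fl, that is with the floxed but undeleted allele. The other 8 libraries come from Cdk8-ko (Cdk8 Δ/Δ) lines, in which Vav-Cre, active across blood cells, had removed the gene, and they are used here only to set values beside those of the control lines. All 8 lines carry the oncogene, so neither treatment was measured in untransformed B-cell progenitors. There was 1 dose, 1 time point and 1 library per line and treatment.

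CDK8 and CDK19 are alternative kinases of the Mediator kinase module, in which cyclin C (Ccnc) activates the kinase and MED12 and MED13 tie it to the Mediator complex that bridges transcription factors and RNA polymerase II. The kinases phosphorylate transcription factors and are known to take part in the induction of genes by interferon, by NF-kB and by stress pathways, in some settings as activators and in others as repressors. Pro-B cells are early B-lineage progenitors that express surrogate light chain (Igll1, Vpreb1) and the commitment factors PAX5 and EBF1 before a complete B-cell receptor is made.

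Total counts over genes ranged from 13145876 to 18349425 in the 8 libraries, and 12989 genes passed the filter on low counts. All 12 B-lineage markers were above 1 CPM (read counts of a gene scaled to the size of its library, not to gene length) in every library. Of 8 T-cell markers 6 were below 1 CPM throughout, with Cd3e, Cd3g and Cd4 at or below 0.081 CPM, and Trac reached 1.66 CPM. The 5 mast cell and basophil markers summed to at most 0.231 CPM and the 4 NK cell markers to at most 6.29 CPM. The 4 mature B-cell markers summed to 22.9 to 71.6 CPM in DMSO and 26.4 to 64.4 CPM in Senexin B, mostly Ighd and Cr2. Of 10 myeloid markers 9 were below 1 CPM throughout. Their summed level was 0.432 to 7.58 CPM in DMSO and 0.65 to 6.00 CPM in Senexin B. The markers of other cell types that were not near 0 included Lck (19.5 to 133 CPM), Hbb-bt (3.20 to 259 CPM) and Pecam1 (48.7 to 454 CPM), which differed between lines, and Tcf4 (88.3 to 172 CPM) and Cox6a2 (6.71 to 223 CPM), and their part in the results was not tested. In bulk RNA, fewer cells of a type and less RNA per cell cannot be told apart. The lines also differed in sex-linked genes. Xist stood at 2700 and 2852 CPM in line 2 and was at most 2.92 CPM in the others. Ddx3y was at 0 CPM in line 2 and at 23.9 to 47.2 CPM in the others. Eif2s3y was at most 0.081 CPM in lines 1 and 2 and at 33.3 to 41.6 CPM in lines 3 and 4. The part of these differences in the results was not tested. The share of counts on mitochondrial genes was higher with Senexin B in each line (7.92% to 10.4% in line 1, 6.59% to 10.1% in line 2, 6.75% to 7.21% in line 3 and 8.01% to 9.01% in line 4), and its part in the results was not tested. Line 1 stood apart from the other 3 in its response, as described further on, so the calls and a part of the other results are given with and without it. The DMSO library of line 1 was also the only one of 16 whose file header names an annotation folder without the word modified, but the gene models in all 16 files were identical, and 0 genes were at 0 there while having at least 20 counts in every other library.

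With line as a block, 45 genes passed an adjusted p of 0.05 and a fold change of 2 in edgeR's quasi-likelihood test. Of these 21 rose with Senexin B, 0.162% of the genes tested, and 24 fell, 0.185% of them. The lower genes with the smallest p were Csf2rb2, Pld4, Fcrl1 and Nlrp3, which are known for cytokine signalling, nucleic acid sensing, B-cell signalling and inflammasome assembly. Among the higher genes they were Ighg2b, Ly6d, Osr2 and Igkc, of which Ly6d marks B-lineage commitment and Ighg2b and Igkc encode immunoglobulin constant regions. In the GRCm38 annotation of the files Csf2rb2 lies at chr15:78282517-78305603, Pld4 at chr12:112760655-112768986, Fcrl1 at chr3:87376387-87402934, Nlrp3 at chr11:59541568-59566956 and Ly6d at chr15:74762056-74763620, and counts cover all exons of a gene. Without the block, no gene passed (smallest adjusted p = 0.236 in edgeR, 493 genes at an unadjusted p under 0.05 and 18 calls in DESeq2 without the block). DESeq2 with the block called 177 genes, including all 45. Leaving out line 1 gave 538 calls, including 44 of the 45, whereas leaving out line 2 gave 0 (951 genes at an unadjusted p under 0.05), line 3 gave 9 and line 4 gave 28.

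Pld4 and Nlrp3, genes of innate sensing, and Card6 fell with Senexin B. Pld4, an endosomal exonuclease that trims the nucleic acids sensed by Toll-like receptors, stood at 13.7, 28.9, 22.2 and 24.2 CPM in DMSO in lines 1 to 4 and at 1.44, 6.78, 3.54 and 4.31 CPM in Senexin B. Each treated library was below each DMSO library, and the gene fell by 2.58 on the log2 scale (SE 0.23, edgeR, adjusted p = 0.00665, n = 4 pairs). Nlrp3, the sensor of the best known inflammasome, went from 17.7, 57.9, 47.5 and 28.2 CPM to 4.26, 14.1, 9.93 and 2.999 CPM. Line 4 lost most (log2 difference -3.18), and again no treated library reached the lowest DMSO library (log2 fold change -2.37, SE 0.23, edgeR, adjusted p = 0.00739). Card6, which carries a caspase recruitment domain, went from 24.3, 29.1, 17.6 and 15.4 CPM to 12.4, 12.7, 6.71 and 7.07 CPM (log2 fold change -1.17). Casp1, the protease that inflammasomes activate, did not pass the test (log2 fold change -0.97, edgeR, adjusted p = 0.0747) but was lower in each of the 4 lines, with log2 differences of -0.91, -1.402, -0.82 and -0.75.

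Among the interferon-inducible guanylate-binding proteins, GTPases that attack intracellular pathogens and their vacuoles, Gbp4 and Gbp9 fell. Gbp4 stood at 10.4, 18.02, 32.5 and 15.02 CPM in DMSO and 4.26, 6.37, 12.7 and 5.61 CPM in Senexin B, a log2 fold change of -1.39 (SE 0.17, edgeR, adjusted p = 0.0192). Gbp9 gave 7.004, 25.1, 32.4 and 10.2 CPM and 2.09, 7.26, 13.5 and 3.61 CPM. In both genes the DMSO and Senexin B libraries overlapped between lines although every line moved down, so the difference was seen only within lines. Gbp4, Gbp8 and Gbp9 share exonic sequence positions in the annotation used, so reads at those positions may be missing from their counts.

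Cytokine receptor chains were the next group. Csf2rb2, the mouse beta chain specific to interleukin 3, stood at 28.5, 40.8, 23.6 and 40.3 CPM in DMSO and 5.27, 7.91, 6.39 and 10.3 CPM in Senexin B (log2 differences -2.41, -2.35, -1.87 and -1.96). No treated library reached the lowest DMSO library. It had the smallest p of all genes tested (log2 fold change -2.16, SE 0.18, edgeR, adjusted p = 0.00665). Csf2rb, the beta chain shared by the receptors for interleukin 3, interleukin 5 and GM-CSF, went from 113, 218, 144 and 178 CPM to 68.5, 72.4, 69.8 and 71.6 CPM, and all 4 treated libraries lay within a narrow range of 68.5 to 72.4 CPM. The genes are near-identical neighbours, so reads that fit both may be missing from their counts. Of 22 cytokine receptor genes tested these were the 2 that passed in edgeR, where 0.185% of all genes were called lower. DESeq2 called 3 lower, against 92 of all 12989 genes. Without line 1 edgeR called 3 lower and 1 higher, against 1.97% and 2.18% of all genes. In all 4 lines 6 were lower (27.3%, against 8.9% of all genes) and 2 higher (9.1%, against 9.12%). Flt3, the receptor of early lymphoid progenitors, was low in every library, at 0.459, 1.604, 0.746 and 4.31 CPM in DMSO and 0, 0.484, 0.215 and 1.000 CPM in Senexin B, and missed the threshold in edgeR (adjusted p = 0.107) but not in DESeq2 (adjusted p = 0.0409) or without line 1 (edgeR, adjusted p = 0.0106). Il2ra, a pre-B marker and the high-affinity chain of the interleukin 2 receptor, was higher in each line (log2 differences 0.95, 0.76, 0.83 and 1.07) with an adjusted p of 0.0484 in edgeR, but its fold change was under 2.

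Signalling proteins of the B-cell surface fell in part. Fcrl1, an Fc receptor-like coreceptor of B cells, went from 19.3, 20.3, 23.4 and 31.6 CPM to 5.42, 3.15, 4.94 and 6.84 CPM, with no overlap between groups (log2 fold change -2.23, SE 0.20, edgeR, adjusted p = 0.00665). Bank1, a scaffold downstream of the B-cell receptor, went from 16.4, 11.4, 31.1 and 72.7 CPM to 6.35, 2.74, 9.88 and 16.6 CPM. Line 4 started highest and the treated line 4 library remained above the DMSO library of line 2, so the groups overlapped while each line moved down (log2 fold change -1.79). Fcrla, an intracellular relative of FCRL1, moved the other way, from 2.296, 18.6, 10.1 and 5.28 CPM to 4.19, 73.7, 33.7 and 32.9 CPM, least in line 1 (log2 difference 0.83) and most in line 4 (2.61). Plxnc1 and Plxnd1, receptors for semaphorins, both fell (log2 fold changes -1.78 and -1.53), as did Gng2, a G-protein gamma subunit (-1.11), Dusp3, a dual-specificity phosphatase (-1.32), and the lectin gene Clec2i (-1.02).

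The remaining lower genes had varied roles. Atf5, a transcription factor related to ATF4, stood at 134, 182, 236 and 231 CPM in DMSO and 75.03, 52.8, 58.6 and 75.4 CPM in Senexin B. It lost least in line 1 (log2 difference -0.83) and most in line 3 (-2.01). Atf5 overlaps exons of Nup62 on the opposite strand. Without strand-specific counting reads of the 2 genes there cannot be told apart and may be missing from both counts. The exons of Myadm overlap other annotated exons on the same strand, so reads there may be missing from its count. Bhlhe41, described further on, overlaps the little-expressed Gm43909. Mean levels in DMSO and in Senexin B (± SD, n = 4) were 25.3 ± 7.25 and 8.56 ± 0.896 CPM for Hsd11b1, which regenerates active glucocorticoid, 2.75 ± 1.35 and 0.634 ± 0.238 CPM for the lactate transporter gene Slc16a3, and 68.3 ± 17.99 and 28.6 ± 11.1 CPM for Mxd4, a partner of MAX that opposes MYC. For Cpeb4, an mRNA-binding regulator of translation, they were 36.4 ± 14.2 and 13.99 ± 2.01 CPM, and for Hmces, a protector of abasic DNA sites, 28.6 ± 17.3 and 10.9 ± 5.86 CPM. Myo1d, an unconventional myosin, Dnajc6, the clathrin uncoating factor auxilin, Myadm and the unnamed gene Gm17767 also fell, with log2 fold changes of -2.16, -2.24, -1.07 and -1.61. Dnajc6 had no count in the treated line 1 library, so its fitted change there depends on the prior count.

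**Figure D1:**
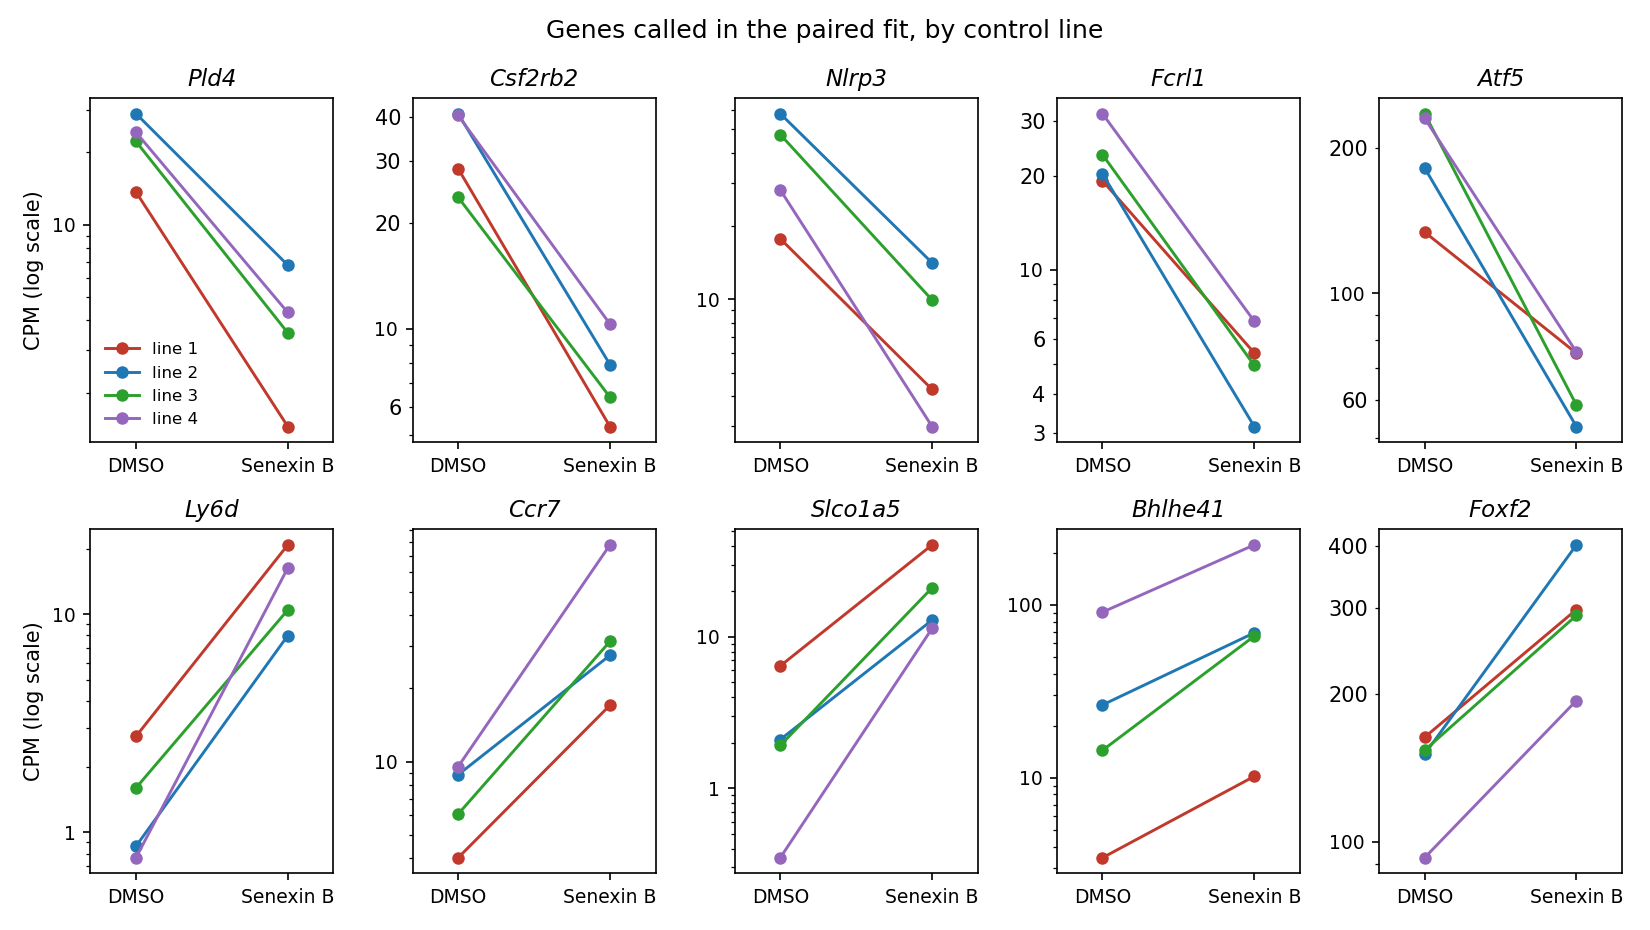
CPM (log scale) in DMSO and in Senexin B of 10 genes called in the paired fit, 1 coloured line per control line. Within each gene the 4 lines move in the same direction but by unequal amounts (for Slco1a5 by log2 differences of 2.63, 2.55, 3.37 and 4.60), and their starting levels differ. In Bhlhe41 the treated line 1 library (10.2 CPM) is below the DMSO libraries of lines 2 to 4.

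Higher genes included several of the B lineage. Ly6d, which marks lymphoid progenitors committed to the B lineage, stood at 2.76, 0.864, 1.599 and 0.765 CPM in DMSO and 20.8, 7.99, 10.5 and 16.3 CPM in Senexin B. The lowest treated library was above the highest DMSO library (log2 fold change 3.24, SE 0.31, edgeR, adjusted p = 0.00739). Ccr7, a homing receptor of lymphocytes, went from 4.02, 8.82, 6.08 and 9.53 CPM to 17.04, 27.3, 31.2 and 77.8 CPM, highest in line 4 (log2 fold change 2.28, SE 0.24). Ccr7 is on the list of maturing B-cell genes, of which 18 were tested. It was the only 1 called in edgeR (higher, against 0.162% of all genes). In all 4 lines 2 of them were higher and 5 lower (11.1% and 27.8%, against 9.12% and 8.9% of all genes). DESeq2 called 1 higher and 3 lower, against 85 and 92 of all 12989 genes. Without line 1 edgeR called 1 higher and 6 lower, against 2.18% and 1.97% of all genes. Igkc, the kappa light-chain constant region, went from 3.33, 173, 16.4 and 14.9 CPM to 17.1, 727, 43.4 and 50.98 CPM, so that line 2 was far above the others in both treatments. Ighg2b, the gamma 2b heavy-chain constant region, went from 0.344, 3.02, 6.72 and 5.49 CPM to 2.53, 19.9, 41.6 and 87.97 CPM, and line 4 moved most (log2 difference 3.97). Reads of immunoglobulin constant regions may also fit close paralogs, and such reads may be missing from the counts. The 4 plasma cell markers, of which 0 were below 1 CPM throughout, summed to 322 to 462 CPM in DMSO and 455 to 645 CPM in Senexin B, nearly all of it Irf4, which early B-lineage cells also express and which was at 326, 437, 364 and 307 CPM and 444, 604, 446 and 504 CPM. Sdc1 went from 13.8, 18.8, 3.305 and 2.92 CPM to 13.3, 35.8, 5.475 and 6.075 CPM, higher in lines 2 to 4 and not in line 1. Prdm1 and Jchain were at most 7.61 and 12.3 CPM, and the part of these markers in the result was not tested. Without immunoglobulin and T-cell receptor segment genes 43 genes were called, all among the 45.

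Several genes of transcription factors rose. Bhlhe41, a circadian and lymphoid repressor, went from 3.44, 26.3, 14.4 and 90.6 CPM to 10.2, 68.8, 65.9 and 222 CPM. The lines differed widely in level but little in response, with log2 differences of 1.53, 1.38, 2.18 and 1.29. Foxf2, a forkhead factor best known from mesenchyme, went from 163, 151, 154 and 92.8 CPM to 297, 402, 289 and 194 CPM without overlap of the groups (log2 fold change 1.06, SE 0.16). Tox, a nuclear factor of lymphocyte development, went from 19.9, 11.2, 4.05 and 8.07 CPM to 83.3, 29.4, 9.88 and 20.7 CPM and moved most in line 1 (log2 difference 2.06). Egr3, an immediate early zinc finger factor, was low throughout (0.919, 0.37, 0.426 and 0.765 CPM in DMSO and 4.77, 1.13, 2.68 and 2.85 CPM in Senexin B). Egr1, of the same family, ran the other way without passing the test (log2 differences -0.44, -1.67, -0.77 and -2.24). Osr2 and Zfpm2, a zinc finger factor and a GATA cofactor, had log2 fold changes of 2.31 and 1.79, the latter with no count in the DMSO library of line 1.

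Transporters, enzymes and secreted factors made up the rest of the higher genes. Slco1a5, an organic anion transporter, went from 6.43, 2.098, 1.92 and 0.348 CPM to 40.5, 12.9, 21.1 and 11.4 CPM (log2 fold change 3.22, SE 0.34, edgeR, adjusted p = 0.00889). Tmprss3, a membrane serine protease, went from 7.69, 0.432, 7.94 and 0.626 CPM to 39.4, 10.9, 65.8 and 15.2 CPM. Both were near or below 1 CPM in some DMSO libraries and above 10 CPM in every treated library. Log2 fold changes were 3.31 for Tph1, the rate-limiting enzyme of serotonin synthesis, 2.36 for the neutral amino acid transporter gene Slc6a19, and 1.74 for Adssl1 of purine nucleotide synthesis. They were 2.63 for Angpt1, a ligand of the receptor TIE2, 1.71 for Ltbp2, an extracellular matrix protein, 2.17 for Nrgn, a calmodulin-binding protein, and 2.37 for Cables1, which binds cyclin-dependent kinases. Tph1 had no count in the DMSO library of line 4. Gm36120, an unnamed gene (log2 fold change 3.67), had no count in either library of line 1, so its change rests on lines 2 to 4.

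All but Gm36120 of the 45 called genes, 44 in number, moved the same way in all 4 lines. For 21 of the 45, 8 higher and 13 lower, the DMSO and Senexin B libraries did not overlap, against 2.15% of all genes tested, and this count is a description, since the test had chosen the genes. The median absolute log2 difference of the 45 was 1.48 in line 1, 1.79 in line 2, 1.86 in line 3 and 1.74 in line 4, and line 1 had the smallest change of the 4 in 26 of them.

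**Figure D2:**
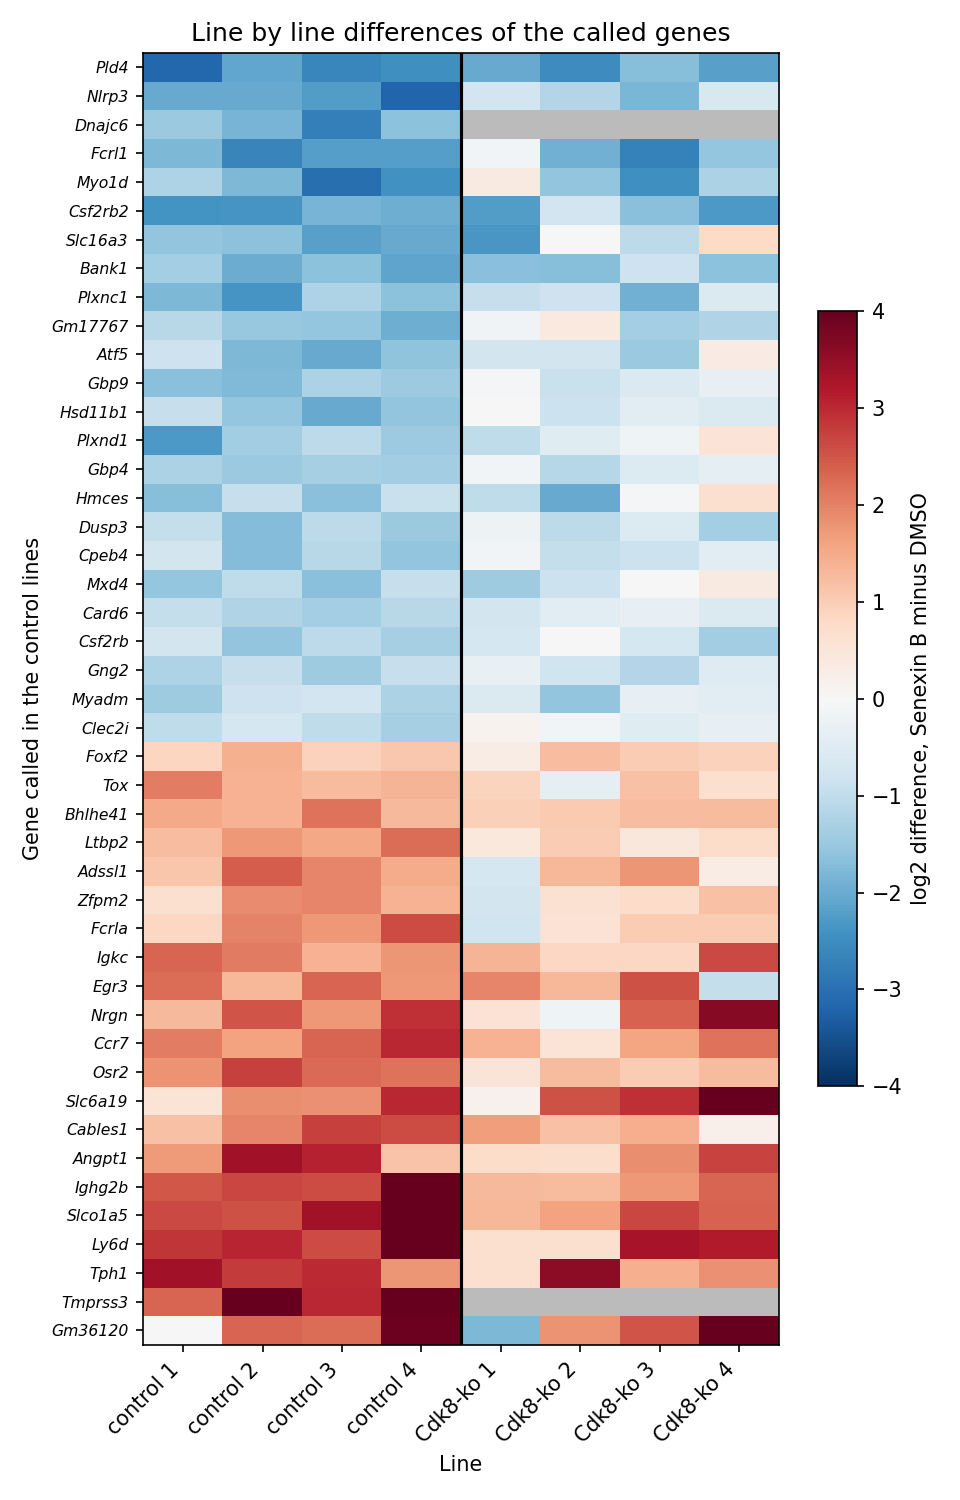
Log2 difference, Senexin B minus DMSO, of the 45 genes called in the control lines (rows, ordered by fitted fold change) in the 4 control and the 4 Cdk8-ko lines (columns). The colour scale ends at -4 and 4, grey marks 2 genes that did not pass the filter in the Cdk8-ko lines, and each control column keeps its sign within a block except for the blank cell of Gm36120 in line 1.

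Taking all genes and any size, 1185 genes were higher with Senexin B in each of the 4 lines, 9.12% of those tested, and 1156 were lower in each, 8.9%. At 1.5-fold or more in every line 62 genes were higher (0.477%) and 88 lower (0.677%), and 43 of these 150 were among the calls. At 2-fold or more in every line 26 were higher and 17 lower. Just inside the 1.5-fold limit were Hist1h2ab, higher with a smallest log2 difference of 0.603, and Ctdsp2, lower with 0.586. Just outside were Them6 (0.565) and Oas2 (0.585). These counts are a description, with no test, since the genes were picked for moving together.

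Interferon-stimulated genes had the largest share of members lower in all 4 lines among the 29 gene lists, 48.8%. Of 41 type I interferon-stimulated genes tested, 20 were lower in all 4 lines and 1, Bst2, was higher, against 8.9% and 9.12% of all genes, but 0 passed the paired test in edgeR and 5, all lower, in DESeq2. Of all 12989 genes DESeq2 called 92 lower and 85 higher. At an unadjusted p under 0.05 in edgeR there were 15 of the list lower and 1 higher, against 5.39% and 4.95% of all genes. The median log2 difference of the list was -0.89 in line 1, -0.36 in line 2, -0.14 in line 3 and -0.34 in line 4, beside medians of all genes between -0.004 and 0.018. Line 1 thus had the lowest median of the 4, with 38 of the 41 genes lower, against 6520 of all 12989. Without line 1 edgeR called 4 of the list lower and 0 higher, against 1.97% and 2.18% of all genes. The median log2 fold change was -0.23 without line 1 against -0.37 with it. Gbp2 stood at 27.7, 36.04, 33.95 and 57.6 CPM in DMSO and 2.89, 9.92, 21.1 and 16.8 CPM in Senexin B (log2 fold change -1.83, edgeR, adjusted p = 0.119). Irgm2, an immunity-related GTPase, went from 14.3, 13.8, 18.9 and 21.97 CPM to 7.799, 5.73, 10.3 and 10.00 CPM, and Irf7, the factor that amplifies interferon production, from 11.7, 1.17, 7.94 and 8.07 CPM to 3.54, 0.484, 4.24 and 1.999 CPM. Without line 1 Gbp2, Irgm2 and Irf7 were called lower (log2 fold changes -1.44, -1.09 and -1.38, edgeR, adjusted p = 0.00607, 0.00693 and 0.0233). Irf1 was lower in each line but by little (log2 differences -0.61, -0.02, -0.43 and -0.22), and Tap1, also induced by interferon, did not keep 1 direction (0.07, 0.12, -0.01 and 0.42). Mx1 and Ido1 did not pass the filter on counts. Slfn5, a Schlafen family member, was not on the list and had log2 differences of -1.78, -2.11, -1.07 and -1.35 (edgeR, adjusted p = 0.0764, and 0.0185 without line 1). In endosomal nucleic acid sensing 8 of 21 genes were lower in all 4 lines and 0 higher, among them Ctss, Tlr9 and Irf7. Pld4 was the only one called in edgeR (lower, against 0.185% of all genes), and DESeq2 called 4 lower, against 92 of all 12989 genes. Without line 1 edgeR called 5 lower, against 1.97% of all genes, with a median log2 fold change of -0.17 against -0.31 with it. In the NF-kB and TNF list 7 of 20 were lower and 0 higher in all 4 lines, with 0 called in edgeR. At an unadjusted p under 0.05 in edgeR 7 were lower, against 5.39% of all genes. DESeq2 called 1 lower, against 92 of all 12989 genes, and edgeR without line 1 called 4 lower, against 1.97% of all genes. Icam1 and Rel had the smallest p (log2 fold changes -0.75 and -0.70).

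The interferon-stimulated response element is the sequence bound by interferon-activated factors, and it was searched as 2 copies of GAAA spaced by 2 bases of any kind, on both strands, without counting overlaps with other motifs, in the 250 bases before each RefSeq start (build GRCm38.p6). These letters were present in 3.5% of 27025 mouse genes and in 3.3% of 9050 tested genes that matched a promoter by symbol. They were present in 9 of the 72 matched genes that were lower by 1.5-fold in every line (12.5%), in 2 of the 39 that were higher (5.1%) and in 6 of the 94 that were higher in line 1 and lower in the others (6.4%). Among the called genes they were in 1 of the 19 matched lower genes (5.3%) and in 1 of the 11 matched higher genes (9.1%). A match describes letters and not a bound site. The 3 promoters printed here belong to Slfn5, Ifit3 and Irgm2, lower in each line, and were picked because they hold the letters, which are in capitals. The windows are chr11:82951852-82952101 (plus strand), chr19:34583279-34583528 (plus strand) and chr11:58214727-58214976 (plus strand), each ending just before the RefSeq start. In the gene models of the files only the Ifit3 window lies outside its gene, and those of Slfn5 and Irgm2 lie inside genes annotated from a start further upstream.
Slfn5: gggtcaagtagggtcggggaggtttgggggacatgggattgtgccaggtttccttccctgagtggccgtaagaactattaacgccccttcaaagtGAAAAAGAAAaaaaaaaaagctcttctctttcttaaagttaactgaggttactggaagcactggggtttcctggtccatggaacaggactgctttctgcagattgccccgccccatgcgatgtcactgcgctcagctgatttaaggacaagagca
Ifit3: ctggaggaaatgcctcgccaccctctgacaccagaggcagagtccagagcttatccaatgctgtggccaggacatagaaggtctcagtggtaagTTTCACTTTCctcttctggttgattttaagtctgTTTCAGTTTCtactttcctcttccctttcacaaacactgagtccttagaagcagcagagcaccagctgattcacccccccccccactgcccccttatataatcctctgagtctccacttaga
Irgm2: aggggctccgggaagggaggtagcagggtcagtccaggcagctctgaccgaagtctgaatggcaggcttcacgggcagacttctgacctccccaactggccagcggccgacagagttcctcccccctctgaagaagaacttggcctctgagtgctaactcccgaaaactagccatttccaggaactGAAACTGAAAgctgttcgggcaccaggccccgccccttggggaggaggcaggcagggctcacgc
In Ifit3 the match occurred in 2 places, on the opposite strand, and Ifit3 itself was low (0.746, 0.309, 1.87 and 1.81 CPM in DMSO and 0.0722, 0, 0.966 and 0.154 CPM in Senexin B).

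Of 17 pro-B and pre-B surface markers 8 were higher in all 4 lines (47.1%, against 9.12% of all genes) and 1, Flt3, was lower (5.9%, against 8.9%). Ly6d was the only one called in edgeR (higher, against 0.162% of all genes). DESeq2 called 2 higher and 1 lower, against 85 and 92 of all 12989 genes. Without line 1 edgeR called 4 higher and 1 lower, against 2.18% and 1.97% of all genes. Among the 15 most uniform gains, the genes that were not called included Megf10, a phagocytic receptor of glia, Ctla4, an inhibitory receptor of T cells, and Lrrc32, which tethers latent TGF-beta. Megf10 stood at 0, 0, 11.7 and 0.0695 CPM in DMSO and 0.722, 0.484, 45.7 and 0.769 CPM in Senexin B, and Ctla4 at 0.976, 0.247, 2.56 and 0.139 and 2.82, 1.37, 7.14 and 0.769 CPM. Lrrc32, also on the list of STAT5 targets, gave 8.09, 12.3, 11.5 and 1.18 CPM and 40.6, 30.9, 51.3 and 77.2 CPM, and its gain in line 4 (log2 difference 5.88) was above that in lines 1 to 3 (2.31, 1.31 and 2.15). Hs3st2, a heparan sulfate sulfotransferase, and 2010109I03Rik completed the uncalled genes of those 15, with smallest log2 differences of 1.37 and 1.44. Among the uniform losses that missed the test were Cacna1h, a T-type calcium channel (smallest log2 difference in size 1.56), and Tmem255a (1.297). In the DNA replication list 6 of 29 genes were higher in all 4 control lines (Mcm2, Mcm3, Mcm5, Mcm6, Cdc6 and Gins1), or 20.7% against 9.12% of all genes, and 1, Ccne2, was lower. None was called in edgeR, with or without line 1, or in DESeq2, and 5 had an unadjusted p under 0.05, 4 of them higher, where 4.95% of all genes were higher at that p.

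The kinases that the compound inhibits did not pass the test. Cdk8 stood at 68.3, 60.6, 62.9 and 65.3 CPM in DMSO and 89.6, 55.5, 56.9 and 55.1 CPM in Senexin B (log2 fold change -0.03, SE 0.16). Cdk19 gave 283, 168, 168 and 149 CPM and 198, 133, 180.3 and 170.5 CPM, and Ccnc 46.6, 49.8, 47.2 and 47.7 CPM and 48.8, 40.2, 57.1 and 41.5 CPM. Of the 7 genes of the Mediator kinase module 0 were called in edgeR or DESeq2, 0 had an unadjusted p under 0.05, and 0 moved the same way in all 4 lines. Med12 had the smallest p of them (log2 differences -0.27, 0.52, 0.81 and 0.50), with a log2 fold change of 0.39 and an adjusted p of 0.543 in edgeR that became 0.60 and 0.0457 without line 1, and Med13 had log2 differences of -0.05, -1.04, 0.28 and 0.16. RNA levels say nothing of kinase activity, which was not measured in these files.

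Line 1 ran against the other lines over a large share of the transcriptome. Where lines 2, 3 and 4 agreed in sign (5717 genes), line 1 had the opposite sign in 3366, or 58.9%. The same count gave 38.9% for line 2, 26.6% for line 3 and 28.4% for line 4. Where the other 3 lines all moved by 1.5-fold or more 1 way, line 1 had their sign in 269 of 746 genes (36.1%), line 2 in 209 of 241 (86.7%), line 3 in 196 of 207 (94.7%) and line 4 in 186 of 210 (88.6%). Line 1 moved 1.5-fold or more against 1.5-fold or more in each other line in 248 genes, of which 122 were higher in line 1 (0.939% of those tested) and 126 lower (0.97%). The corresponding totals were 9 for line 2, 3 for line 3 and 11 for line 4. Across 12717 genes, which are not independent, the log2 differences of line 1 correlated with those of lines 2, 3 and 4 at Pearson's r of -0.054, -0.116 and -0.136, while lines 2 to 4 correlated with each other at 0.395 to 0.629. The spread of the response was of similar size in each line (SD of log2 differences 0.594, 0.624, 0.54 and 0.681 in lines 1 to 4). The line 1 libraries had 17131918 counts in DMSO and 14237176 in Senexin B, within the range of the others for DMSO and Senexin B. Abl1, whose reads can come from the oncogene as well as the mouse gene, was at 1493, 687, 476 and 382 CPM in DMSO and 1314, 455, 339.8 and 379.9 CPM in Senexin B, highest in line 1 in both, and its part in the results was not tested.

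**Figure D3:**
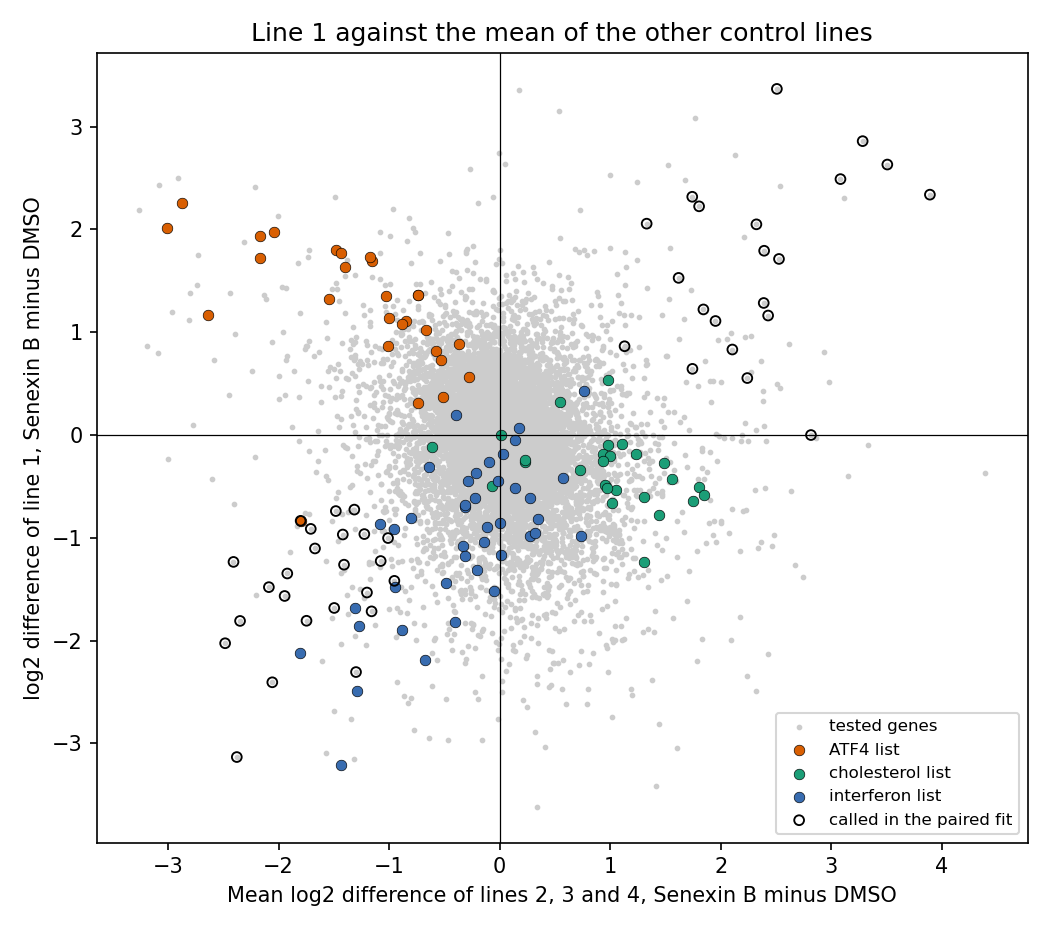
Log2 difference of line 1 (vertical axis) against the mean log2 difference of lines 2, 3 and 4 (horizontal axis), Senexin B minus DMSO, for 12989 genes. ATF4 genes fill the upper left, cholesterol genes lie mostly at the lower right, interferon genes extend downward and called genes (rings) lie at the lower left and upper right.

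Genes of the amino acid stress response were higher in line 1 and lower elsewhere. ATF4 is the transcription factor that cells induce when amino acids run short or the endoplasmic reticulum is stressed, and its targets import and make amino acids or mediate stress signalling. Of 27 such genes tested 26 were higher with Senexin B in line 1, against 6444 of all 12989 genes. The list's median log2 difference was 1.32 there, against -0.82 in line 2, -1.499 in line 3 and -1.07 in line 4. Line 1 was opposite to 3 agreeing lines in 25 of the 27, against 3366 of all 12989 genes. In 15 it was so by 1.5-fold throughout, each higher in line 1, against 0.939% of all genes. The 2 genes in which line 1 was not opposite were Atf5, described above and lower in every line, and Slc7a11, higher in line 2 as well. With line 1 in the fit 1 member, Atf5, was called lower in edgeR, against 0.185% of all genes, and 1 in DESeq2, against 92 of all 12989. Without line 1 there were 15 called lower and 0 higher, against 1.97% of all genes called lower and 2.18% higher in that fit.

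Individual genes show the reversal, and of those given here Atf3, Nfil3 and Slc6a9 are not on the ATF4 list. Atf3, a stress-induced factor downstream of ATF4, stood at 13.8, 95.4, 70.4 and 140.5 CPM in DMSO and 78.4, 20.6, 8.59 and 12.3 CPM in Senexin B. The DMSO library of line 1 was the lowest of the 4 and its treated library the highest of the 4. Nupr1, a stress-induced chromatin protein, gave 49.03, 90.5, 121 and 166 CPM and 235, 21.5, 12.2 and 17.3 CPM, and Ddit3, which encodes the death-promoting factor CHOP, 161, 171, 183 and 352 CPM and 529.9, 55.02, 35.9 and 61.4 CPM. Cebpb and Nfil3, basic leucine zipper factors, had log2 differences of 2.01, -2.47, -4.27 and -2.28 and 2.41, -2.101, -2.13 and -2.403. Slc6a9, a glycine transporter gene, had 1.68, -1.63, -2.12 and -1.71, and Slc7a5, a large neutral amino acid transporter gene, 1.64, -1.59, -1.499 and -1.12. Trib3, a pseudokinase induced by ATF4, had 1.16, -2.45, -3.104 and -2.37. Atf4 itself had 0.37, -0.18, -0.66 and -0.70. Other genes of the 10 with the largest reversal were Fbln5, an elastic fibre protein (2.43, -3.15, -3.59 and -2.504), Tmcc3 (2.19, -3.37, -3.87 and -2.54), Crisp3 (1.75, -2.95, -1.75 and -3.47) and the potassium channel gene Kcnh1 (1.46, -3.11, -2.51 and -2.604).

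**Figure D4:**
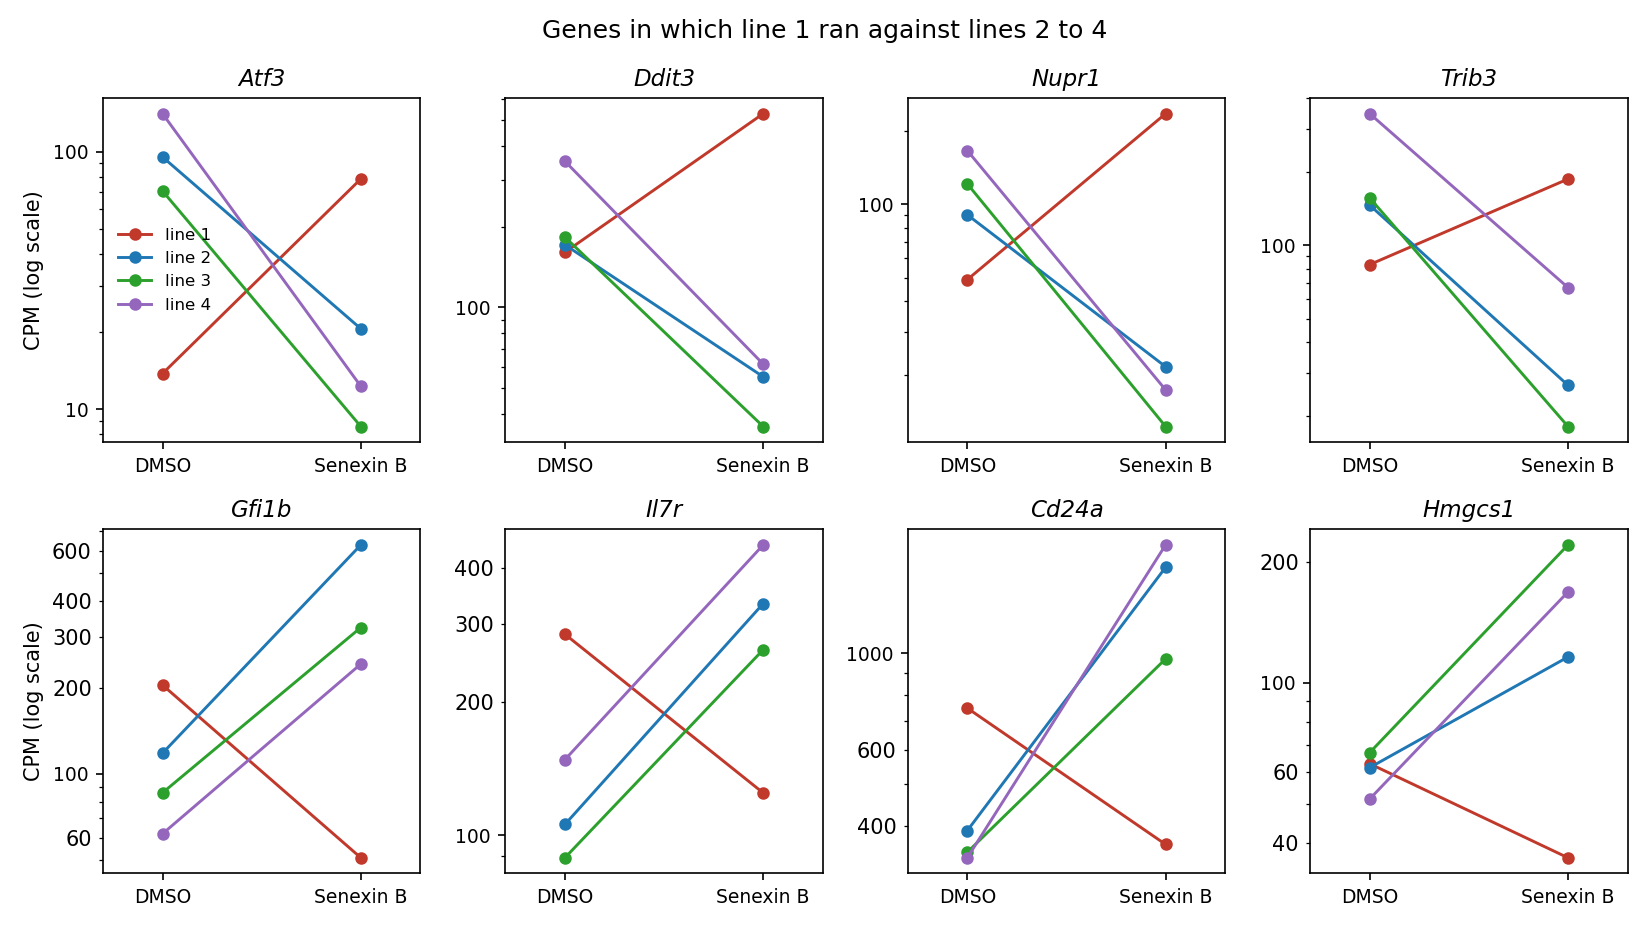
CPM (log scale) in DMSO and in Senexin B of 8 genes in which line 1 (red) moved against lines 2, 3 and 4. In the upper 4 genes line 1 climbs while the others drop, for Ddit3 from 161 to 530 CPM in line 1, and in the lower 4 genes it drops while the others climb.

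The composite element of ATF4 and C/EBP factors, searched as TGATGNAA on both strands in the same windows, was present in 3.9% of all 27025 genes and 2.5% of the tested genes with a promoter. It was present in 12 of the 94 matched genes that were higher in line 1 and lower in the others (12.8%), in 2 of the 80 matched genes of the reverse pattern (2.5%), in 2 of 19 called lower (10.5%), in 2 of 19 of the cholesterol list (10.5%), in 3 of 39 higher by 1.5-fold in every line (7.7%) and in 7 of 26 matched genes of the ATF4 list (26.9%). The promoters of Atf3, Nupr1 and Vldlr are printed as genes that hold it, with the letters in capitals. Of these Atf3 is not on the ATF4 list. The windows are chr1:191183334-191183583 (minus strand), chr7:126625471-126625720 (minus strand) and chr19:27216770-27217019 (plus strand) of GRCm38.p6. All 3 windows lie inside the longer genes annotated in the files.
Atf3: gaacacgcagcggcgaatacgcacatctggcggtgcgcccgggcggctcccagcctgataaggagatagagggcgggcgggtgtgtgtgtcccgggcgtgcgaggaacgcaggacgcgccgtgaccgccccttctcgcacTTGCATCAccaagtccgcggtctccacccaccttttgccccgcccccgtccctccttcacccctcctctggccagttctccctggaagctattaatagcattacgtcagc
Nupr1: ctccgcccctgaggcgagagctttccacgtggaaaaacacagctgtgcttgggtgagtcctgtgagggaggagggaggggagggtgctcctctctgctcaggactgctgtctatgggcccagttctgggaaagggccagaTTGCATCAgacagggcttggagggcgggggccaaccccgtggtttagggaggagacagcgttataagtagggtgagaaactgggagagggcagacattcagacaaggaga
Vldlr: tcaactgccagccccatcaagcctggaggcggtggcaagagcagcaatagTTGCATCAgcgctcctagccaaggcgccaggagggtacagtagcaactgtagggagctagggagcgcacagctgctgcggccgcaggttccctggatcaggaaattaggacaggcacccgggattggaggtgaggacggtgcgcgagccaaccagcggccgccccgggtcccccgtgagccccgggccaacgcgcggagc
In each of the 3 the letters appear as TTGCATCA, the reverse complement, with its first base at -110 relative to the start in Atf3 and Nupr1 and at -200 in Vldlr. No match in this window says only that these letters are absent from it.

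Genes of cholesterol synthesis ran in the reverse pattern, with a smaller median change in line 1, where 24 of 26 were lower, against 6520 of all 12989 genes. These genes are switched on by SREBP2 when membrane sterol is low. The list's median log2 difference was -0.31 in line 1, 0.98 in line 2, 1.05 in line 3 and 1.00 in line 4. Line 1 was opposite to 3 agreeing lines in 20 of 26 genes, against 3366 of all 12989. With line 1 in the fit 0 were called in edgeR, and 15 were higher and 1 lower at an unadjusted p under 0.05 (against 4.95% and 5.39% of all genes). In DESeq2 3 were called higher, against 85 of all 12989 genes. Without line 1 there were 12 called higher, against 2.18% of all genes, and 0 lower. Hmgcs1, which makes the precursor of mevalonate, gave 63.04, 61.6, 67.2 and 51.5 CPM and 36.8, 116, 220.1 and 168 CPM. Line 1 had the lowest treated level of Hmgcs1. Pmvk and Sc5d were the 2 members higher in all 4 lines.

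A sterol regulatory element, searched as TCACNCCAC on both strands, was present in 1.2% of all genes and in 1 of 19 matched genes of the list. That gene is Hmgcs1, printed with the match in capitals from chr13:119690101-119690350 (plus strand, GRCm38.p6), outside the gene as the files annotate it.
Hmgcs1: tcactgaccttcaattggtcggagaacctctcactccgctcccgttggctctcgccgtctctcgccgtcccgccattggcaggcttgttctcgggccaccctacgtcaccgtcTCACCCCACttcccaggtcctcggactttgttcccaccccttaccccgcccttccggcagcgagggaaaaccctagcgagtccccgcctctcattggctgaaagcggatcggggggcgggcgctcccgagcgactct
SREBP2 also binds variants of these letters, which were not searched.

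Several surface and cytoskeletal genes of haematopoietic cells were lower in line 1 and higher in the others. Il7r, the interleukin 7 receptor of B-cell progenitors, stood at 284, 106, 89.1 and 148 CPM in DMSO and 125, 333, 262 and 452 CPM in Senexin B, so that line 1 had the highest DMSO level and the lowest treated level. Gfi1b, a repressor of erythroid and megakaryocytic cells, gave 204, 118, 85.97 and 61.9 CPM and 51.1, 628, 324 and 242 CPM. Cd24a, a surface marker of B-cell progenitors chosen here after its values were seen, gave 748, 391, 349 and 339 CPM and 363, 1575, 970.2 and 1774 CPM. Scin, an actin-severing protein, had log2 differences of -2.13, 2.12, 2.15 and 3.02, and Efhd1, a mitochondrial calcium-binding protein, -1.77, 2.68, 1.86 and 1.97. The rest of the 10 largest were Art4 (-1.61, 1.397, 2.28 and 1.39), Slpi (-2.49, 3.55, 2.05 and 1.35), Emp1 (-1.41, 1.78, 1.33 and 1.27), Lgr5 (-1.26, 2.59, 2.56 and 2.88), Gm38365 (-1.71, 1.14, 1.22 and 1.86) and Gm37082 (-1.89, 1.14, 1.42 and 1.47). The G2/M list, genes of mitosis, had medians of -0.23, 0.27, 0.39 and 0.56 in lines 1 to 4, with all 27 lower in line 1 and 21, 25 and 25 of them higher in lines 2, 3 and 4. Of all 12989 genes 6520 were lower in line 1, and 6654, 6595 and 6428 were higher in lines 2, 3 and 4. None of the 27 was called in edgeR or DESeq2, and 0 had an unadjusted p under 0.05. Without line 1 edgeR called 1 higher, against 2.18% of all genes.

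**Figure D5:**
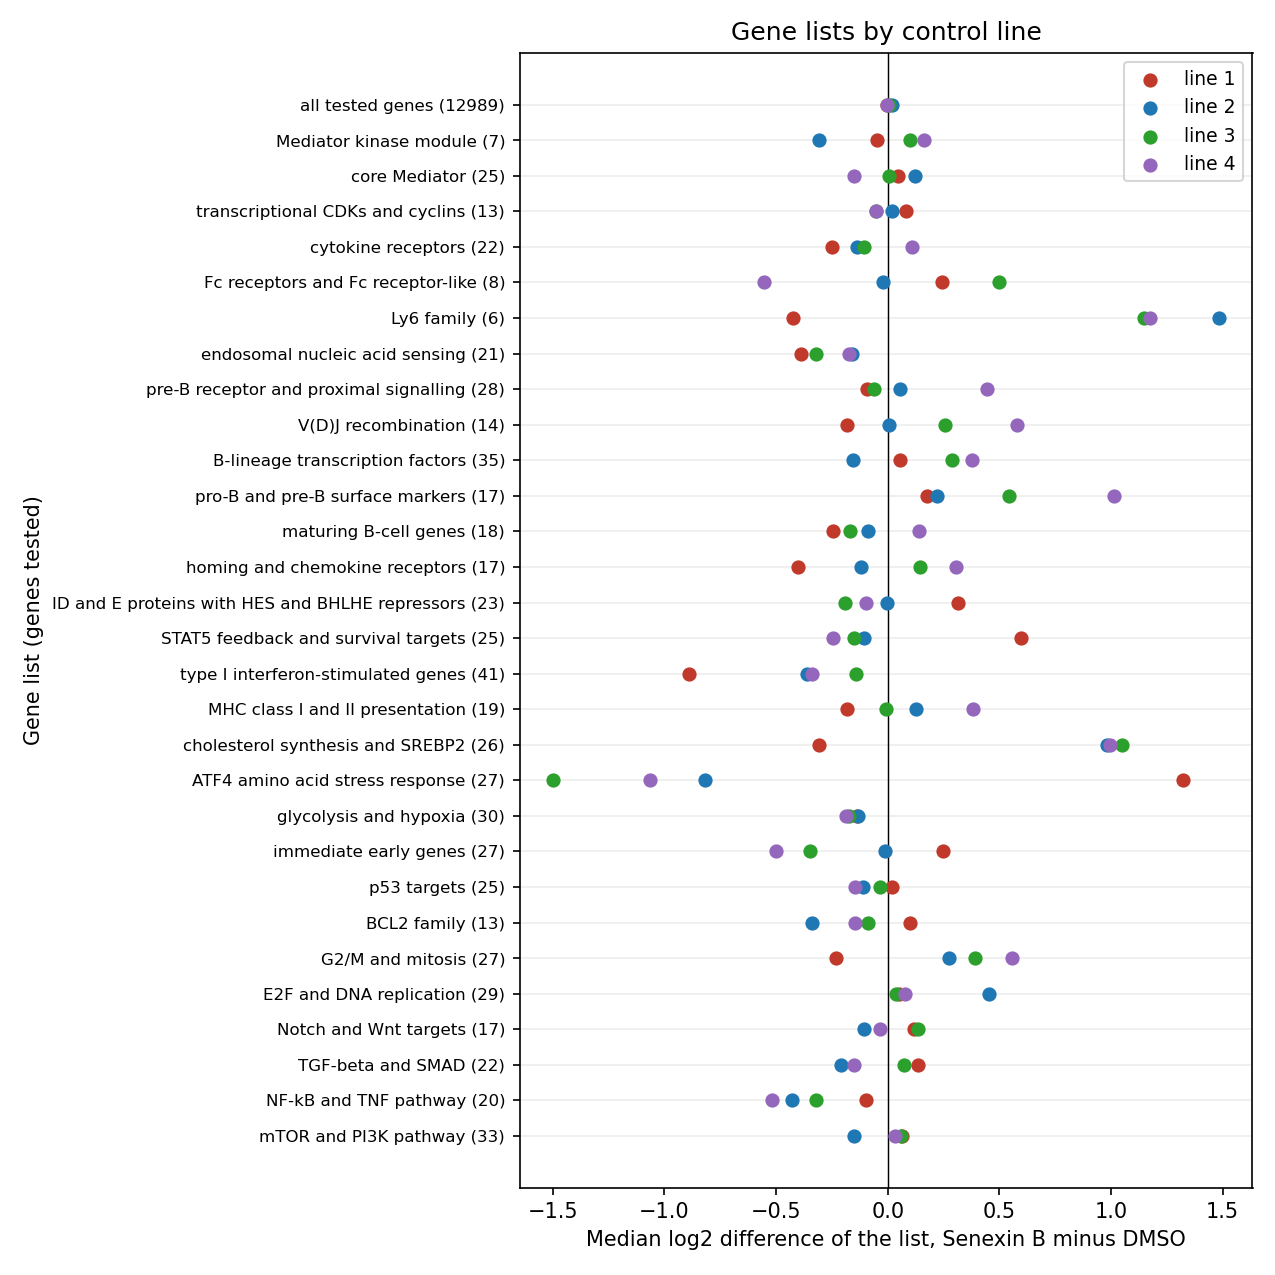
Median log2 difference, Senexin B minus DMSO, of each gene list in the 4 control lines, with the number of genes tested in brackets. In the ATF4 list line 1 (1.32) is on the opposite side of 0 from the other lines, as in the cholesterol list (-0.31), while in the interferon list all 4 are below 0.

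The 248 reversed genes were chosen on these differences, so what the fit makes of them is a description. With line 1 in the fit 0 were called in edgeR, 11 and 18 of the 2 sets had an unadjusted p under 0.05 and 1 of each set was called in DESeq2. Without it 91 of the 119 tested that were higher in line 1 were called lower, and 78 of the 122 tested that were lower in line 1 were called higher. Of all genes 1.97% were called lower and 2.18% higher in that fit. By level, the treated library of line 1 was nearer to the mean DMSO level of lines 2 to 4 than to their mean treated level in 104 of the 122 and in 106 of the 126. The DMSO library of line 1 was nearer to the treated mean of the other lines in 79 of the 122 and 60 of the 126. All line 1 differences take its 2 libraries as labelled, and an exchange of their labels, which would turn each sign, was not tested. Of 523 genes called without line 1 and tested with it, line 1 had the direction of the other lines in 194 and the opposite in 326, and it had their direction in 44 of the 45 called with it, a set that its own values helped to choose.

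The Cdk8-ko lines are separate libraries that had no part in choosing these genes. Cdk8 itself, scaled to total counts, was at 36.1, 55.3, 47.1 and 42.4 CPM in DMSO and 46.2, 61.9, 42.0 and 38.6 CPM in Senexin B in the lines labelled Cdk8-ko, against 69.4, 61.7, 66.5 and 67.5 CPM and 87.2, 52.3, 57.8 and 51.5 CPM in the control lines. The Cdk8-ko libraries were all below the control libraries in DMSO and overlapped them in Senexin B. Since counts sum over all exons and do not resolve the floxed part, these values do not check the deletion. There, 5 genes rose (0.0376%) and 2 fell (0.0151%) with Senexin B, and Pld4, Bhlhe41 and Slco1a5 were among both sets of calls. Of the 45 genes 43 were tested in the Cdk8-ko lines, and 36, 38, 43 and 37 of them moved in the direction of the control lines in Cdk8-ko lines 1 to 4, where 47.4%, 60.8%, 64.1% and 57.1% of all 12717 genes tested in both did so. In 26 of the 43 all 4 Cdk8-ko lines had that direction, against 14.3% of all genes tested in both, and in 33 the paired fit of the Cdk8-ko lines gave an unadjusted p under 0.05, against 10.3% of all genes. Pld4 had log2 differences of -2.03, -2.51, -1.699 and -2.16 there, Csf2rb2 of -2.22, -0.75, -1.66 and -2.29 and Ly6d of 0.65, 0.64, 3.29 and 3.19. The median ratio of the Cdk8-ko to the control log2 fold change was 0.535, and since the genes were chosen for their size in the control lines a smaller value elsewhere is not by itself a difference. A test of the difference between genotypes called 0 of 14164 genes in edgeR, with 459 at an unadjusted p under 0.05 and a smallest adjusted p of 0.991. Without control line 1 it also called 0, with 1891 genes at an unadjusted p under 0.05 and a smallest adjusted p of 0.143.

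The Cdk8-ko lines were divided on the reversed genes too. Of the 248, 242 were tested, and Cdk8-ko line 1 moved with control line 1 in 220, line 2 in 130, line 3 in 19 and line 4 in 78. Across 12717 genes Cdk8-ko line 1 correlated with control line 1 at r = 0.597 and with control lines 2 to 4 at -0.228 to -0.167, while Cdk8-ko line 3 correlated with them at 0.422 to 0.499 and with control line 1 at -0.059. The median log2 difference of the ATF4 list was 0.94, 0.50, -0.57 and 0.10 in Cdk8-ko lines 1 to 4, and that of the cholesterol list -0.98, -0.02, 0.94 and 0.09. That of the interferon list was -0.44, -0.58, 0.14 and 0.04, so it was below 0 in Cdk8-ko lines 1 and 2 only. Whether lines of the same number in the 2 genotypes were handled together is not given in the sources used here, and the part of handling in this pattern was not tested.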

How the data were processed

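RNA was measured as mRNA-seq (Lexogen SENSE libraries, single-end) in 16 libraries, of which the 8 from control lines are described. The deposited values are raw read counts per gene. The authors trimmed reads with Trimmomatic, aligned them with STAR and counted them with featureCounts 1.5.1 on GENCODE M13 gene models (GRCm38), without strand and without an option for multi-mapping reads. Here genes were filtered with filterByExpr, scaled by TMM and tested with edgeR 4.0.16 (quasi-likelihood, robust, limma 3.58.1, R 4.3.3) with line as a block. Genes with an adjusted p (Benjamini-Hochberg) under 0.05 and a fold change over 2 were called. The study's own test, DESeq2 (1.42.0 here) with no stated block, was run as an alternative. Per-line values are differences of log2 CPM with a prior count of 2, and CPM use the TMM-scaled library sizes. Sampling noise at these depths limits genes of a few counts most, and counting gives no molecule identifiers.

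Replicate numbers in the labels paired the libraries of a line. Deviations from group means correlated at r of 0.602, 0.76, 0.801 and 0.768 between the 2 libraries of control lines 1 to 4, and at -0.425 to -0.102 between lines. Members, gene lists and tests were chosen with earlier results of these data known. Named genes were all called genes, the 15 most uniform movers in each direction, the 10 largest reversals of line 1 in each direction, the inhibitor's targets, list members called or of smallest p, and 6 genes of the study's RT-qPCR. Casp1, Slfn5, Egr1, Slc7a5, Trib3, Atf4, Hmgcs1, Cd24a and other members named in the counts were chosen after their values were seen. Symbols were lacking for 310 of 50686 gene models. Other scalings, filters, thresholds, DESeq2, all 16 libraries and each line left out were tried. Some genes are not reported here.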

Additional observations from a re-analysis of the deposited data

Results flagged for a closer look

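In 74 groups of 4 lines, 6 had 1 line apart from the others by more than Dixon's 95% critical value for the gap as a share of the range. The groups were the 45 called genes and the medians of the 29 gene lists. The genes were called on these same differences, some lists share genes, and all groups rest on the same 4 lines. A chance rate of 1 in 20 holds for independent, unselected groups and does not apply here, so the count is a description. For Ighg2b the share was 0.878, with the log2 difference of line 4 above those of lines 1 to 3. For Tox it was 0.843, with line 1 above the others. The median of the cholesterol synthesis list gave 0.951, with line 1 below the others, and that of the STAT5 feedback and survival list gave 0.833, with line 1 above them. Line 2 stood above the others in the median of the E2F and DNA replication list (0.906) and below them in that of the mTOR and PI3K list (0.844).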

How the results depend on the processing

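The calls rested on the pairing: without the replicate block edgeR called 0 genes, and DESeq2 without it 6 higher and 12 lower. The blocked fit gave 85 higher and 92 lower in DESeq2, 214 and 193 without a count filter, 10 and 18 with at least 10 counts in every library, 41 and 44 with all 16 libraries and 45 and 48 at an adjusted p of 0.1. Leaving out 1 line gave 0 to 283 higher and 0 to 255 lower calls, with both highest values without line 1 and both lowest without line 2. Size factors by RLE, a fold limit of 1.5 or none, the fit that was not robust and the fit without antigen receptor segments stayed within 1.5 times of the main counts. With at least 10 counts in every library, 34 genes were higher and 50 lower by 1.5-fold in every line, and the genes running against the other 3 lines numbered 4, 1 and 2 for lines 2, 3 and 4, or 5, 1 and 6 with a prior count of 5. In the Cdk8-ko lines there were 0 calls without the replicate block and 0 to 31 with 1 line left out. The log2 fold change of Cdk8 became 0.001 without the block and ranged from -0.182 to 0.026 with 1 line left out (above 0 without line 2, 3 or 4), that of Ccnc from -0.147 to 0.048 and that of Med13 from -0.304 to 0.133, the highest of both without line 2. The difference between genotypes stayed at 0 calls throughout. Of the alternative values for named genes 410 kept direction and side of the threshold, 158 lost and 50 gained the call and 6 changed sign. The causes were not tested. Genes of a few counts, such as Ifit3, Flt3 and Tph1, are limited by depth.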
